A study of Mus musculus with 12 samples.

Results

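The transcripts of 10 genes that run the unfolded protein response were followed: the sensor genes Atf6, Atf6b, Ern1, Ern2 and Eif2ak3, the transcription factor genes Xbp1, Atf4 and Ddit3 that act downstream of sensors, and Creb3l1 and Creb3l4 of the CREB3 family. The rule names the genes and sets no threshold on their values, and all 10 of 10 were measured among 19935 genes. The tissue was the anterior prostate, the lobe pair of the mouse that runs beside the seminal vesicles, in males of 12 weeks fed AIN93G, a semi-purified diet, from 3 weeks on. APT121 mice carry T121, a fragment of the SV40 large T antigen that inactivates the pRb family, under the prostate-specific probasin promoter, which is active in epithelium, and develop prostatic intraepithelial neoplasia (PIN). Wild type mice carry no T121, and both groups are F3 mice (B6D2F3) bred from C57BL/6J and DBA/2. Each array took pooled RNA of 2 mice, so that 8 APT121 mice gave 4 arrays and 16 wild type mice gave 8.

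The endoplasmic reticulum (ER) is where secreted and membrane proteins fold, and the unfolded protein response adjusts its capacity when unfolded proteins build up. Each of its branches starts at a protein of the ER membrane. ATF6 is cut in the Golgi to free a transcription factor, IRE1 (gene Ern1) splices the Xbp1 mRNA so that it encodes an active factor, and PERK (gene Eif2ak3) phosphorylates eIF2alpha, which slows translation in general and raises translation of ATF4 and, further on, CHOP (gene Ddit3). Luminal cells of the prostate secrete heavily and hold much ER. The arrays read transcript amounts. They do not show cleavage of ATF6, phosphorylation of PERK or eIF2alpha, or the spliced share of Xbp1.

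Values below are log2 intensities, means are given ± SD, differences (log2, ± SE) are positive where APT121 was higher, and adjusted p-values are from limma over all 19935 genes with a threshold of 0.05. Nothing in the labels says whether pools came from separate litters or cages, so the tests set the genotypes against the variation among pools only. The median log2 level of an array over genes lay between 5.37 and 5.46. In all, 52.8% of genes passed the threshold, 22.8% higher and 30.0% lower in APT121, and the median difference of all genes was -0.09. Luminal markers were high in both groups, with Krt18 at 11.48 ± 0.06 in wild type and 11.45 ± 0.03 in APT121, and Hoxb13, a homeobox gene of the prostate, at 9.83 and 9.26. Markers of several cell types differed between the groups, and in bulk tissue fewer cells of a type and less RNA per cell cannot be told apart.

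Most of the response's own genes had lower transcript levels in the APT121 lobes. Of the 10, 7 fell, 2 rose and 1 did not pass, against 30.0% of all genes that fell and 22.8% that rose. The median difference of the 10 was -0.63. The falls of Atf6 (3.27-fold) and Atf4 (2.42-fold) were among the largest, Creb3l1 fell to a level not shown to lie above background, and the rises were of Xbp1 and Creb3l4. For 7 of the 10 the groups did not overlap, 6 with all APT121 values below and 1 with all above, where 34.6% of all genes did not overlap (16.9% below and 17.7% above).

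**Figure D1:**
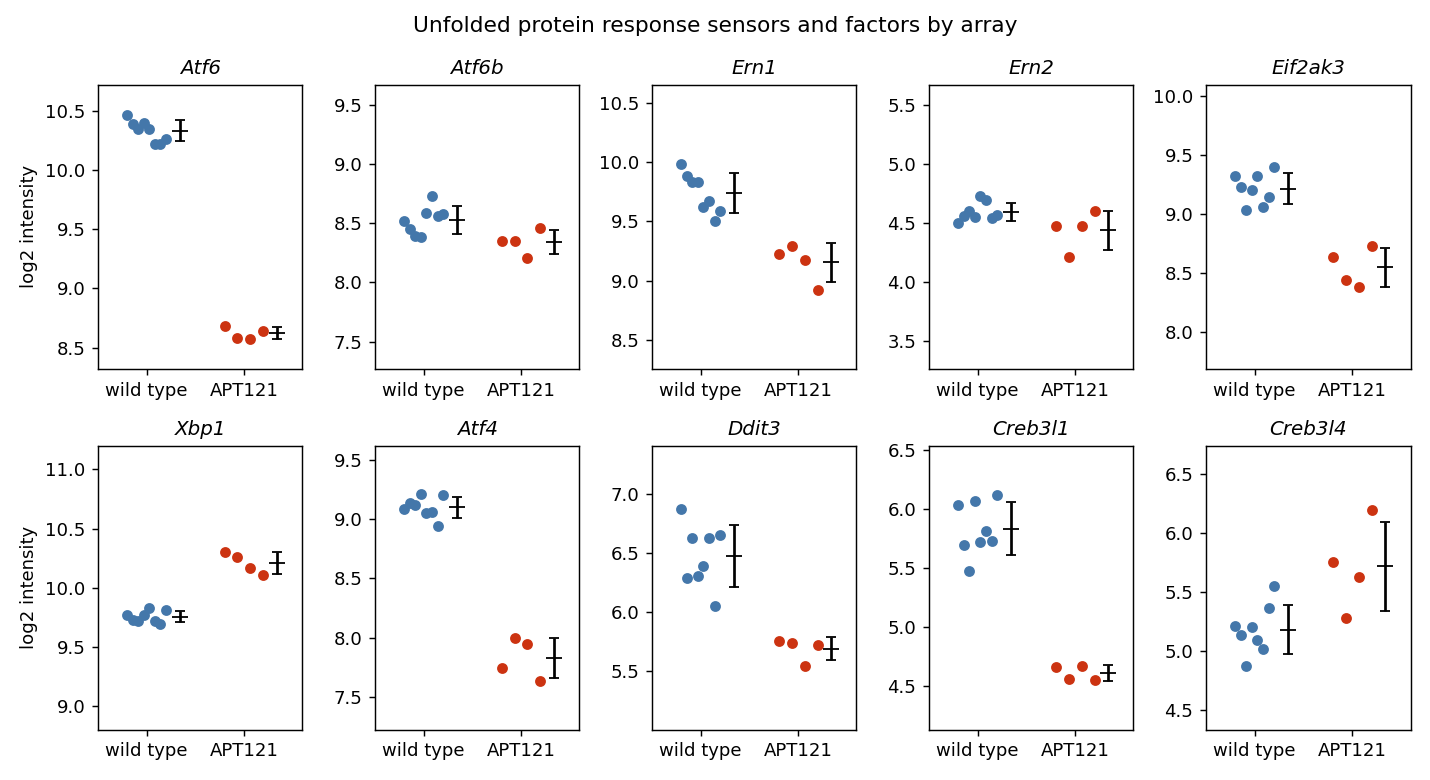
Log2 intensity of the 10 genes on each array (points), for 8 wild type and 4 APT121 pools, with the mean and SD in black; all panels span the same number of log2 units. The APT121 points of Atf6, Ern1, Eif2ak3, Atf4, Ddit3 and Creb3l1 lie below all wild type points, those of Xbp1 lie above, and those of Atf6b, Ern2 and Creb3l4 overlap with wild type.

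Atf6 encodes the ER membrane protein whose freed cytosolic part switches on chaperone genes. Its level (transcript cluster 10359982) was 8.68, 8.58, 8.57 and 8.64 in APT121 arrays 1 to 4, and in wild type it ran from 10.22 over a median of 10.35 to 10.46. The APT121 values lay in a narrow band well under the lowest wild type value. The mean fell from 10.33 ± 0.09 to 8.62 ± 0.05, a difference of -1.71 ± 0.06 or 3.27-fold lower (adjusted p = 4.04e-12). Of all genes, 3.11% had a larger absolute difference. Across 25 alternative settings its difference stayed between -1.80 and -1.64.

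Its paralog Atf6b, which encodes a second membrane-bound factor cut in the same way, did not follow. Atf6b (10444439) was at 8.35, 8.35, 8.21 and 8.46 in APT121 and at 8.39 to 8.73 in wild type, with a median of 8.54, so the groups overlapped. The difference was -0.19 ± 0.07 (adjusted p = 0.0462), a small fall just past the threshold, and 58.8% of all genes had a larger absolute difference. That call ended in 12 of 25 alternatives, among them one with only the first 4 wild type arrays as controls (-0.10, adjusted p = 0.325), and with the last 4, numbers 5 to 8, the difference was -0.27 (adjusted p = 0.0125). Leaving out any one of APT121 arrays 1, 2 and 3 or wild type arrays 1, 5, 6, 7 and 8 also ended it (adjusted p from 0.0586 to 0.153). Within arrays, Atf6 minus Atf6b fell from 1.80 ± 0.18 to 0.28 ± 0.09 (difference -1.52 ± 0.08, two-sided exact permutation p = 0.00202 over 495 groupings, adjusted p = 0.00404 over 6 pairs of genes). That p is the smallest these groupings can give, and the paralogs changed unequally.

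Ern1 encodes IRE1alpha, a kinase and endoribonuclease found in most cells, and Ern2 encodes IRE1beta, best known from mucous and gut epithelium. Ern1 (10392183) was at 9.23, 9.30, 9.18 and 8.92 in APT121, below all wild type values (9.51 to 9.99, median 9.75). It fell by 0.59 ± 0.10 on the log2 scale, 1.50-fold lower in APT121 (adjusted p = 8.79e-05). Wild type arrays 1 to 4 (9.89 ± 0.07) and 5 to 8 (9.60 ± 0.07) stood apart for this gene without overlap, and the difference was -0.73 against the first 4 and -0.44 against the last 4 (adjusted p = 4.53e-05 and 0.00172). Atf6b split between the same arrays without overlap, lower in arrays 1 to 4 (8.44 ± 0.06) than in 5 to 8 (8.62 ± 0.08). Over all genes the second principal component, with 4.41% of the variance, also parted wild type arrays 1 to 4 from 5 to 8. The labels name no batch for these arrays, and the cause of the split was not tested.

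Ern2 (10567680) was at 4.47, 4.21, 4.47 and 4.60 in APT121 and at 4.50 to 4.73 in wild type, with a median of 4.56. These values are below the median of genes on every array, and without detection calls they were not shown to lie above background. Its difference was -0.15 ± 0.07 (adjusted p = 0.0914, 95% interval -0.31 to 0.00344). After median centring it passed (-0.20, adjusted p = 0.0312), as it did without APT121 array 4 (-0.21, adjusted p = 0.0391). Ern1 minus Ern2 within arrays dropped by 0.43 ± 0.17 (exact permutation p = 0.0141, adjusted p = 0.0170 over 6 pairs), a call lost on leaving out array 3 of APT121 (adjusted p = 0.0509) or its array 4 (adjusted p = 0.0655), or with only wild type arrays 5 to 8 as controls (-0.25, adjusted p = 0.171). With Ern2 not shown to lie above background, this pair does not show that Ern1 and Ern2 changed unequally.

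Eif2ak3 encodes PERK, the sensor kinase that phosphorylates eIF2alpha. Its transcript (10538939) was at 8.64, 8.44, 8.39 and 8.73 in APT121, all below wild type (9.03 to 9.40, median 9.22). The mean was 8.55 ± 0.16 against 9.21 ± 0.13, a difference of -0.66 ± 0.09 or 1.59-fold lower (adjusted p = 7.47e-06). The fall was close in size to that of Ern1. Eif2ak3 minus Ern1 within arrays differed by -0.08 ± 0.17 between genotypes (exact permutation p = 0.622, also after adjustment over 6 pairs). This does not show that they changed alike, and the sign turned without APT121 array 2 (0.0063) and against the first 4 wild type arrays (0.08).

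Xbp1 was the one gene whose APT121 values all lay above wild type. It encodes the bZIP factor that IRE1 activates by splicing and that drives ER expansion in secretory cells. Xbp1 (10374035) was at 10.30, 10.26, 10.17 and 10.10 in APT121 and between 9.70 and 9.83 in wild type, with a median of 9.75. It rose from 9.76 ± 0.05 to 10.21 ± 0.09, a 1.37-fold change (0.45 ± 0.06, adjusted p = 8.61e-06). The rise was nearly the same against wild type arrays 1 to 4 (0.46) and 5 to 8 (0.44). The cluster value does not separate spliced from unspliced mRNA. Xbp1 minus Atf6 within arrays shifted by 2.16 ± 0.06 between the genotypes (exact permutation p = 0.00202, adjusted p = 0.00404 over 6 pairs).

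Atf4 encodes the bZIP factor of amino acid supply and redox balance whose translation rises when eIF2alpha is phosphorylated. Its mRNA (10425364) was at 7.75, 7.99, 7.95 and 7.63 in APT121, far below the lowest wild type array (8.94 to 9.21, median 9.10). The difference was -1.27 ± 0.08, a 2.42-fold lower level (adjusted p = 1.03e-09), and 5.22% of all genes had a larger absolute difference. Since ATF4 protein is set mainly by translation, its mRNA need not give the protein's level.

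Ddit3 encodes CHOP, a factor that ATF4 induces and that favours cell death under prolonged stress. Ddit3 (10366881) was at 5.76, 5.74, 5.55 and 5.72 in APT121 and ran from 6.05 over a median of 6.51 to 6.87 in wild type. The groups did not overlap, and the wild type pools were spread more widely (SD 0.26) than the APT121 pools (SD 0.10). The difference was -0.78 ± 0.12 (adjusted p = 5.42e-05), 1.72-fold lower. The measured fall of Ddit3 was smaller than that of Atf4. In APT121, Ddit3 lay only a little above the median of genes on the same arrays (5.42 to 5.46). Without detection calls it was not shown to lie above background there, so the size of its fall is not exact. Ddit3 minus Atf4 within arrays was higher in APT121 by 0.49 ± 0.14 (exact permutation p = 0.0101, adjusted p = 0.0152 over 6 pairs), a difference that did not pass with only the first 4 wild type arrays as controls (0.48, adjusted p = 0.103) or when wild type arrays 5, 6 and 7 were left out (0.47, adjusted p = 0.0571).

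The CREB3 family shares the ATF6 design, a bZIP factor held in the ER membrane and freed by cutting. Creb3l1, also called OASIS, is known for secretion of collagen and other matrix, and Creb3l4 is a member long associated with prostate epithelium. Creb3l1 (10485117) was at 4.67, 4.56, 4.67 and 4.55 in APT121, all below wild type (5.48 to 6.11, median 5.77). The measured fall was 2.33-fold (-1.22 ± 0.11, adjusted p = 8.79e-08). All 4 APT121 values are under the median of genes on their arrays and were not shown to be above background, so the fold is not exact. Creb3l4 (10499751) was at 5.76, 5.28, 5.62 and 6.20 in APT121 and at 4.88 to 5.55 in wild type, with a median of 5.17. Array 2 of APT121 lay within the wild type range and array 4 was the highest. On 7 of 8 wild type arrays and 1 of 4 APT121 arrays the value was under the median of genes and was not shown to lie above background, so this fold is not exact either. The measured rise was 0.53 ± 0.14 (1.45-fold, adjusted p = 0.00512), and it only just passed with wild type arrays 5 to 8 as the controls (0.46, adjusted p = 0.0495). Creb3l4 minus Creb3l1 within arrays rose by 1.75 ± 0.21 (exact permutation p = 0.00202, adjusted p = 0.00404 over 6 pairs).

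**Figure D2:**
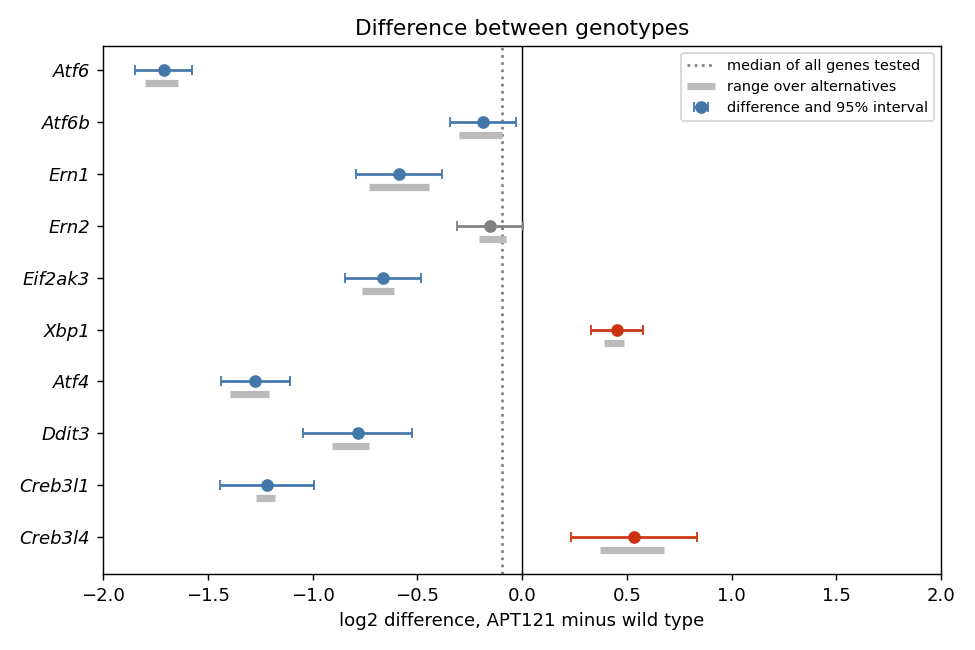
Difference between APT121 and wild type for each gene (points, log2 scale) with its 95% interval from limma; red marks higher, blue lower and grey not past the threshold. Grey bars span the differences over the alternative settings, and the dotted line is the median of all genes, -0.09. Atf6, Atf4 and Creb3l1 lie at -1.71, -1.27 and -1.22, and Xbp1 and Creb3l4 lie at 0.45 and 0.53.

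**Figure D3:**
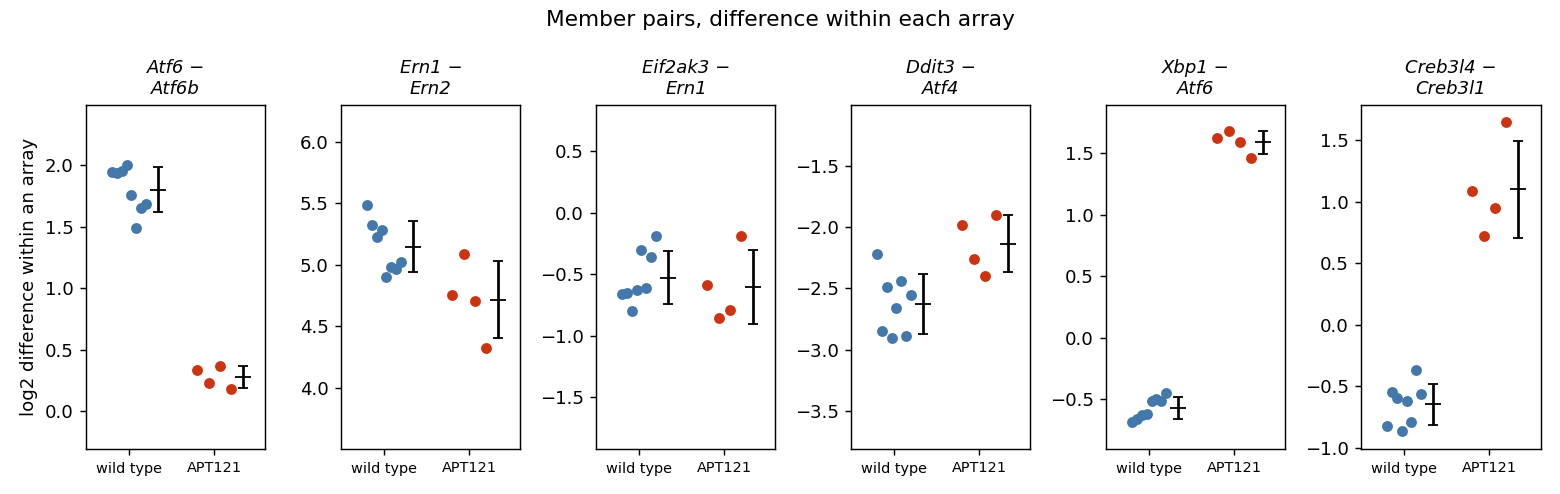
Log2 difference of 2 genes within each array (points) with the mean and SD in black, for 8 wild type and 4 APT121 pools. All panels span the same number of log2 units, and only the shift between genotypes can be read, not the relative amount of 2 transcripts. Xbp1 minus Atf6, Atf6 minus Atf6b and Creb3l4 minus Creb3l1 shift without overlap, by 2.16, -1.52 and 1.75.

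The genes that the response acts on were taken from lists of textbook targets and partners. These lists were chosen with earlier results of these data known, so their counts only describe. Targets of ATF6 and XBP1 that fold proteins in the ER were mostly lower. Of 18 measured, 14 fell, 1 rose and 3 did not pass, with a median difference of -0.42. The co-chaperone genes Dnajb9 (-1.39 ± 0.09) and Dnajc3 (-1.33 ± 0.07, adjusted p = 2.35e-10), the ER resident Creld2 (-1.48 ± 0.16) and Sdf2l1 (-1.17 ± 0.10), a partner of the chaperone BiP, fell most. BiP itself (Hspa5), the main Hsp70 of the ER, ran from 11.77 to 11.96 in APT121 and from 12.10 to 12.69 in wild type, a fall of 0.52 ± 0.09 on the log2 scale (adjusted p = 2.39e-04). Hsp90b1, the ER form of Hsp90, fell by 0.41 ± 0.07 (adjusted p = 1.95e-04). The lectin chaperone genes Calr (-0.10) and Canx (0.10) and the disulfide isomerase gene Pdia3 (-0.04) did not pass. Ero1b, an oxidase that recharges disulfide isomerases, rose by 0.44 ± 0.13 (adjusted p = 0.0119), a call lost after repeated quantile normalisation, with the replicate number as a block, against wild type arrays 1 to 4 and without APT121 array 2. Its paralog Ero1a fell by 0.44 ± 0.11 (adjusted p = 0.00251), a call kept in 24 of 24 alternatives. Ero1a is counted here and again among the targets of ATF4 and CHOP.

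ER-associated degradation, which retrieves misfolded proteins for the proteasome, moved the same way. Of 18 measured genes 16 fell, 0 rose and 2 did not pass, with a median of -0.47. Derl3, a channel component that XBP1 and ATF6 induce, ran from 7.44 to 8.36 in APT121 and from 9.65 to 10.38 in wild type (-2.21 ± 0.16, adjusted p = 1.13e-08). The mannosidase-like gene Edem2 (-1.61 ± 0.07), the ubiquitin ligase gene Syvn1 (-1.30 ± 0.11) and its partner Sel1l (-1.15 ± 0.08) also fell.

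Targets of ATF4 and CHOP were lower for 19 of 27 genes and higher for 4, with a median of -0.64. Asns, which makes asparagine and is a standard readout of ATF4, ran from 8.29 to 8.79 in APT121 and from 11.17 to 11.61 in wild type. Its difference was -2.87 ± 0.10, a 7.30-fold lower level (adjusted p = 1.72e-12). The glutathione-degrading enzyme gene Chac1 (-1.94 ± 0.20), the cystine transporter gene Slc7a11 (-1.43 ± 0.29) and the secreted hormone gene Stc2 (-1.13 ± 0.13) fell too. So did Trib3 (-0.86 ± 0.14), a pseudokinase that restrains ATF4, and Ppp1r15a (-0.99 ± 0.06, adjusted p = 1.64e-09), also called GADD34, which guides the phosphatase that reverses eIF2alpha phosphorylation. The targets that rose were Cth (0.97), Tnfrsf10b (0.84), Bcl2l11 (0.81) and Cebpg (0.24, adjusted p = 0.0325). Cebpg lost its call in 12 of 24 alternatives, both scalings and the comparisons with either set of 4 wild type arrays among them, as well as without any one of wild type arrays 2, 5 and 7 and APT121 arrays 2 and 4. Of the 4, Tnfrsf10b encodes a death receptor and Bcl2l11 the pro-apoptotic protein BIM. Bbc3, another pro-apoptotic gene of this list, fell by 0.46 ± 0.11 (adjusted p = 0.00228). Wild type means of 5.20 for Bbc3 and 4.61 for Tnfrsf10b were below the median of genes. So were APT121 means of 4.87 for Slc7a11, whose groups overlapped, and 5.11 for Stc2. The sizes of these differences are therefore not exact.

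**Figure D4:**
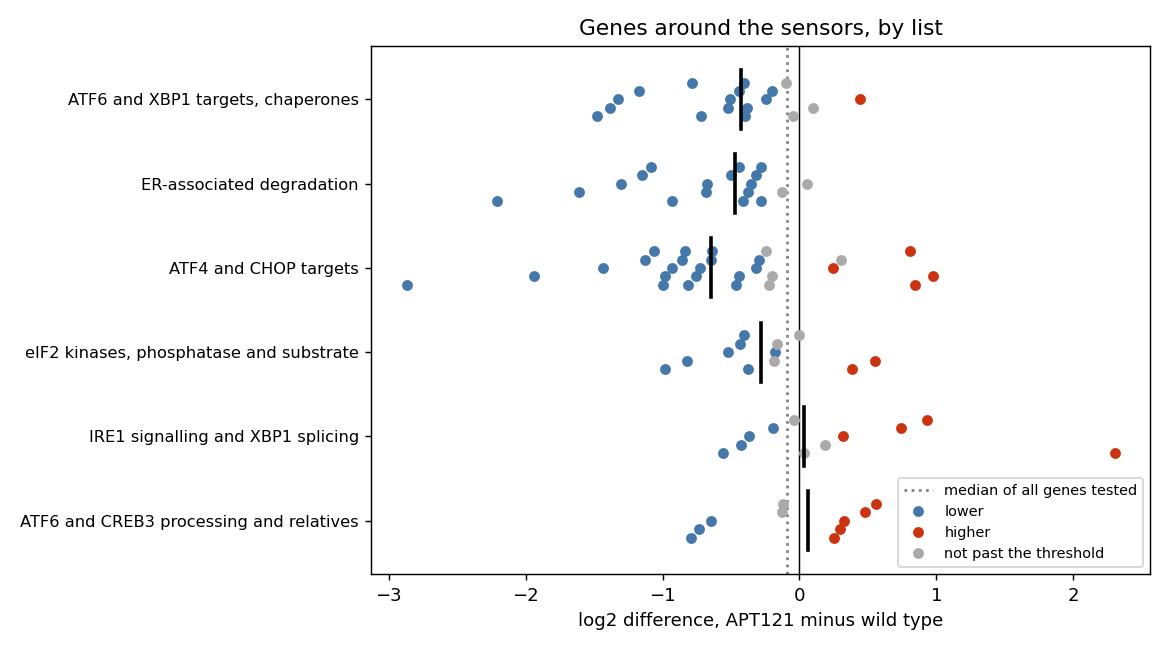
Difference between APT121 and wild type for each gene of 6 lists (points, log2 scale), with the list median in black; red marks higher, blue lower and grey not past the threshold, and the dotted line is the median of all genes, -0.09. The top 3 lists have medians of -0.42, -0.47 and -0.64, and the bottom 2 have points on both sides.

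Genes that set or read eIF2alpha phosphorylation were lower for 7 of 12 and higher for 2 (median -0.28). Besides Ppp1r15a, which is in this list too, the eIF2 beta subunit gene Eif2s2 (-0.82 ± 0.11) and the exchange factor gene Eif2b3 (-0.52 ± 0.10) fell. Eif2ak2, the interferon-induced kinase PKR that also phosphorylates eIF2alpha, rose by 0.55 ± 0.10 (adjusted p = 2.37e-04). Among 11 genes around IRE1, 4 rose and 4 fell, with a median of 0.04 that turned to -0.02 after median centring and -0.10 after quantile normalisation. Traf2 (0.93 ± 0.09) and Map3k5 (0.74 ± 0.07), which carry the kinase signal of IRE1 to JNK, rose. The JNK genes themselves did not rise with them. Mapk8 fell by 0.43 ± 0.08 (adjusted p = 3.10e-04), and Mapk9 did not pass (0.19, adjusted p = 0.229). Scara3, a known substrate of IRE1's RNA decay activity, rose by 2.30 ± 0.14 (adjusted p = 1.49e-09), while Bloc1s1, the substrate most used as a readout, differed by 0.04 ± 0.11 (adjusted p = 0.804). Col6a1, another substrate and a matrix gene of fibroblasts, fell by 0.56 ± 0.08. The ligase gene Rtcb, which joins the ends of spliced Xbp1, differed by -0.04.

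Processing factors and relatives of the members moved both ways, with 5 of 10 higher and 3 lower (median 0.07). Mbtps1, the Golgi protease that makes the first cut in ATF6 and CREB3 factors, rose by 0.29 ± 0.08 (adjusted p = 0.00507), a call lost with only the first 4 wild type arrays as controls. The CREB3 relatives Creb3 (-0.73 ± 0.07) and Creb3l2 (-0.65 ± 0.07) fell, as did Wfs1 (-0.79 ± 0.08), an ER membrane protein that restrains ATF6. All 3 genes of NF-Y, the trimer that binds the CCAAT box of ER stress elements beside ATF6, rose, with Nfyc up by 0.56 ± 0.07, though Nfyb did not pass after repeated quantile normalisation.

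The DNA letters through which the factors act can be shown for many of these genes. RefSeq promoter windows (GRCm38.p6, 250 bases before to 50 after an annotated start) were at hand for 7 of the 10 members and for 78 of 94 listed pathway genes. Searched on both strands were the ER stress element ERSE, CCAAT and CCACG with 9 bases of any kind between them, which ATF6 binds with NF-Y, the related ERSE-II, ATTGG and CCACG with 1 base between them, the UPRE, TGACGTGG, the cyclic AMP element, TGACGTCA, the ATF4 composite site, TGATGNAA, and an E2F site, TTTGGCGC. They were present in 0.119%, 0.0365%, 0.676%, 1.79%, 3.97% and 0.514% of 32851 windows. ERSE was found in 10 of the 78 pathway genes. The lists are of known targets, so a high share was built into the choice. The sites are shown, as the strand that reads CCAAT first, to set each beside its gene's change, with the fixed letters in capitals:
Hspa5, chr2:34772025-34772043, plus strand: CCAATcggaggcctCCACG
Calr, chr8:84847075-84847093, plus strand: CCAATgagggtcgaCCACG
Derl3, chr10:75893242-75893260, minus strand: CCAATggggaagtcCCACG
Hsp90b1, chr10:86705638-86705656, minus strand: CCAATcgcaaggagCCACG
Hsp90b1, chr10:86705533-86705551, plus strand: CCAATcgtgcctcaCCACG
Canx, chr11:50325800-50325818, minus strand: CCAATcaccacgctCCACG
Pdia6, chr12:17266491-17266509, plus strand: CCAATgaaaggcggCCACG
Ero1b, chr13:12565682-12565700, minus strand: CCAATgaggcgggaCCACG
Dnajc3, chr14:118937827-118937845, plus strand: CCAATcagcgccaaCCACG
Creld2, chr15:88819520-88819538, minus strand: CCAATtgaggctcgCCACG
Syvn1, chr19:6046532-6046550, plus strand: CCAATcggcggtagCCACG
Of these 10 genes, 7 fell, 1 (Ero1b) rose and 2 (Calr and Canx) did not pass, and over all 78 genes with a window 52 fell, 11 rose and 15 did not pass. Differences of the genes with the exact element ran from -2.21 (Derl3) over -0.52 (Hspa5) to 0.44 (Ero1b). The farthest base of the Hspa5 site is 65 bases before the start.

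The ATF4 composite site was found in windows of 10 measured pathway genes, of which 9 fell and 1, Nupr1, did not pass (0.30, adjusted p = 0.0826). Examples from genes with large falls are Asns (TGATGaAA at chr6:7693225-7693232, minus strand), Chac1 (TGATGcAA, chr2:119351049-119351056, minus strand) and Slc7a11, which has TGATGcAA at both chr3:50443672-50443679 and chr3:50443653-50443660.

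None of the 9 windows of the 7 members held any of those 6 motifs, which says only that these letters are not in the windows. The outer boxes of ERSE, CCAAT (in 37.4% of all windows, either strand) and CCACG (32.8%), did occur. Atf4 and Eif2ak3 are shown because both fell without overlap and, per window, held the most such boxes, Eif2ak3 6 of CCAAT and Atf4 2 of each. The 250 bases before each start follow, with the boxes in capitals (ATTGG is CCAAT on the other strand):
Atf4, chr15:80254934-80255183, plus strand: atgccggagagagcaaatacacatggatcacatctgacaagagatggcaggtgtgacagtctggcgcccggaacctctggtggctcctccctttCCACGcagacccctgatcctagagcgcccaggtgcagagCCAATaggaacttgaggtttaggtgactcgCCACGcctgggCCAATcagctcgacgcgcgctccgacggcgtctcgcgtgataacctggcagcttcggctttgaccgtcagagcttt
Eif2ak3, chr6:70844265-70844514, plus strand: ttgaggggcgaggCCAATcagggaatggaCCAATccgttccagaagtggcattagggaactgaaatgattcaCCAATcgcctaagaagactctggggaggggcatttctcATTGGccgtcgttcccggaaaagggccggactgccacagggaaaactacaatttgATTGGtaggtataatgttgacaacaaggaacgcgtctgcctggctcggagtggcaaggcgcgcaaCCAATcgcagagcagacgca
In Xbp1, the gene that rose without overlap, neither box was found in the window.

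Levels of cell type markers differed between the genotypes as well. Summed intensity of 11 luminal markers ran from 15535 to 18047 in wild type and from 22942 to 23758 in APT121, with 8 of 11 higher and 2 lower. Krt8 (1.00) and Krt19 (1.31) rose, and Cd24a (-0.83) and Hoxb13 (-0.57) fell. Smooth muscle markers summed to 11378 to 13185 in wild type and 6863 to 9190 in APT121 (10 of 10 lower), fibroblast markers to 3670 to 4351 and 1871 to 3175 (8 of 9 lower), and endothelial markers to 675 to 787 and 496 to 521 (8 of 10 lower). Basal markers were lower for 7 of 8 and myeloid markers higher for 9 of 10. All 9 markers of cycling cells were higher, with Mki67 up by 4.58 on the log2 scale. Their part in the members' differences was not tested.

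Markers of mucous cells summed to 2391 to 2825 in wild type and 419 to 637 in APT121, with 4 of 9 lower and 5 not past the threshold (median difference -0.24). Agr2, a disulfide isomerase of mucous and prostate secretory cells, fell by 3.33 ± 0.13 from 11.06 ± 0.11, followed by the factor gene Spdef (-1.18). Agr2 carried most of the fall of this sum. Muc2 (3.74 and 3.56) and Muc5ac (4.01 and 3.86) stayed below the median of genes in both groups. Plasma cells are a cell type that depends on Xbp1. Their markers summed to 1054 to 1568 in wild type and 476 to 602 in APT121, with 1 of 9 higher and 2, Derl3 and Irf4, lower. Derl3, the degradation gene described above, carried the fall of this sum: without it the other 8 markers summed to 193 to 268 in wild type and 275 to 320 in APT121. The plasma cell genes Mzb1 (4.04 in wild type, 4.03 in APT121), Jchain (3.58 and 4.10) and Tnfrsf17 (3.65 and 3.40) were below the median of genes in both groups. Sdc1, which epithelium also expresses, had the highest level of these 8 markers and rose by 0.70 (6.87 in wild type, 7.57 in APT121). The higher sum of the 8 in APT121 is therefore not a measure of plasma cells.

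Seminal vesicle transcripts summed to 1551 to 17961 in the APT121 pools and to 88.4 to 187 in 7 of the wild type pools, but to 15867 in wild type array 6. Of 7 such genes, 3 were higher in APT121 and 4 did not pass. The highest APT121 values of Svs3a, Svs6 and Svs3b were 2.89, 3.26 and 3.61, against highest wild type values of 6.45, 5.86 and 6.97. Wild type array 6 and the APT121 pools thus differed in which of these genes were high. Of the 10 members, 9 lay on wild type array 6 within the range of the other wild type arrays, and Atf6b (8.73) lay above it. Adipose markers were lower in APT121 for 7 of 7. Without wild type arrays 5, 6 and 7, Atf6 differed by -1.75, Atf4 by -1.32, Creb3l1 by -1.26, Xbp1 by 0.45 and Creb3l4 by 0.52, all past the threshold, while Atf6b lost its call (-0.12, adjusted p = 0.192). That setting leaves the seminal vesicle transcripts of the APT121 pools in place. The part of seminal vesicle or adipose tissue in the members' differences was not tested.

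Within a genotype the members varied little, with SDs from 0.05 to 0.38. The genes whose deviations from the genotype means most resembled a member's were found by Pearson's r over 12 arrays among 19934 genes, a description that picks the highest of many values over few arrays. For Atf6 these were Sec63 (r = 0.923), a part of the ER translocation machinery, Cdc73 (0.920) and Tiam2 (0.911), and for Atf6b they were Apool (0.932), Slc31a1 (0.914) and Wfs1 (0.914). For Eif2ak3 they were Ubr1 (0.936), Ganab (0.907), a glucosidase of ER glycoprotein folding, and Vcpip1 (0.895). For Xbp1 they were Prcc (0.884), Zcchc8 (0.867) and Tatdn1 (0.856), for Atf4 Nsa2 (0.904), Zfp825 (0.901) and Shq1 (0.892), and for Creb3l1 Hcrtr2 (0.985), Ube2q2 (0.911) and Arid5a (0.885). For Ern1, Ern2, Ddit3 and Creb3l4 the highest r was between 0.908 and 0.946. A shift between wild type arrays 1 to 4 and 5 to 8 stays in these deviations, since their wild type mean is over all arrays. The means of Atf6, Atf6b and Ern1 differed between these sets (first minus last) by 0.14, -0.18 and 0.29, more than either set's SD. For no other member did the shift exceed both SDs. Whether r reflects this split was not tested, and it does not show shared regulation.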

How the data were processed

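RNA from pools of 2 anterior prostates was measured on 12 Affymetrix Mouse Gene 1.0 ST arrays. The authors deposited linear intensity values made with RMA, per the submitters' processing notes; software version and build were not given in the sources used here. Their log2 was taken, with no filter on low values and no further scaling. Of 28815 transcript clusters, 21780 carried 1 gene symbol, 1605 several and 5430 none. Clusters with 1 symbol were kept, and the highest-mean cluster stood for each of 998 genes with several, leaving 19935 genes; each member has 1 cluster. APT121 and wild type were compared by genotype alone with limma 3.58.1 in R 4.3.3 (two-sided, Benjamini-Hochberg over all genes, threshold 0.05), tested on simulated data first. Pairs of members were compared by exact permutation of within-array differences. The number of arrays limits the precision.

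The members and lists were chosen with earlier results of these data known. Named are all members, up to 4 genes past the threshold with the largest difference per pathway list, a few set genes (Hspa5, Hsp90b1, Dnajb9, Trib3, Asns, Ppp1r15a, Mbtps1, Creb3l2), leading markers, and the 3 genes closest to a member. Closeness over log2 values is left out because the samples fall into 2 groups. Calr, Canx, Pdia3, Ero1a, Ero1b, Cth, Tnfrsf10b, Bcl2l11, Bbc3, Cebpg, Bloc1s1, Rtcb, Mapk8 and Mapk9 were chosen after their values were seen. So were the genes shown for their promoter site and the remaining markers. T121, Aars, Eif2s1 and Mbtps2 were not analysed here. Promoter windows are from RefSeq (GRCm38.p6). Alternatives covered scaling, low-value filters, limma options, the cluster rule, a SAM-type statistic (the design text names SAM), subsets of wild type arrays, the replicate number as a block, and leaving out each array.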

Additional observations from a re-analysis of the deposited data

Results flagged for a closer look

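Among the 20 groups of array values examined (10 genes in each genotype), 1 held a sample far from the others. Ddit3 in APT121 array 3 was at 5.55, with the nearest APT121 array at 5.72 and the highest at 5.76, so the gap made up 0.84 of the group's range. Chance gives about 1 such group in 20.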

How the results depend on the processing

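Atf6, Ern1, Eif2ak3, Xbp1, Atf4, Ddit3, Creb3l1 and Creb3l4 kept their direction and call in every alternative run. Atf6b lost its call in 12 of 25, and Ern2 passed when centred, without APT121 array 4 and by exact permutation (p = 0.0384). The exact permutation p-values of single members were not adjusted over genes, so that alternative is more lenient than the others. Where values moved, the cause was not tested, except that the filter tests fewer genes. Without the lowest 50% of genes, 3327 genes were called lower, against 5987, and 1 member higher, since Creb3l1, Creb3l4 and Ern2 drop out; markers called lower were 2 mucous, 1 plasma cell, 3 adipose and 0 neuroendocrine. Centring gave 5 lower processing genes and relatives, 7 mucous and 4 plasma cell markers. Repeated quantile normalisation gave 0 higher chaperones, 1 lower plasma cell and 0 neuroendocrine markers. The mean of clusters gave 1 higher eIF2 gene, the filter on the lowest 25% and the SAM-type statistic 1 lower plasma cell marker, and the latter 0 neuroendocrine markers.

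Replicate numbers were not shown to pair the samples. The r of deviations was 0.067, 0.059, 0.064 and -0.026 for like numbers 1 to 4, and between -0.115 and 0.098 for unlike numbers. With so few like numbers this check cannot exclude pairing. With the replicate number as a block, 4027 genes were higher and 4787 lower, with 0 higher chaperones, 3 higher processing genes and relatives, 2 higher plasma cell, 5 lower fibroblast and 0 neuroendocrine markers. Pair differences under that block were -1.68 (Atf6 minus Atf6b), -0.62 (Ern1 minus Ern2), 0.48 (Ddit3 minus Atf4), 2.24 (Xbp1 minus Atf6) and 1.81 (Creb3l4 minus Creb3l1), each with an exact adjusted p of 0.15, which 4 pairs cannot improve on, and Eif2ak3 minus Ern1 turned to 0.082. Against wild type arrays 1 to 4, Eif2ak3 minus Ern1 was 0.082 and Ddit3 minus Atf4 0.48, with 0 higher chaperones, 5 lower fibroblast and 0 neuroendocrine markers. Against arrays 5 to 8, Ern1 minus Ern2 was -0.25 and 1 plasma cell marker was lower. Without wild type arrays 5, 6 and 7, Ddit3 minus Atf4 was 0.47 and 0 neuroendocrine markers were lower.

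Leaving out 1 array gave 4150 to 4523 higher and 4829 to 5984 lower genes, 6 to 8 lower members, 0 to 1 higher chaperones, 0 to 1 higher mucous, 1 to 2 higher and 1 to 3 lower plasma cell and 1 to 5 lower neuroendocrine markers. Ern1 minus Ern2 then ran from -0.56 to -0.30 and Eif2ak3 minus Ern1 from -0.22 to 0.0063. Levels under the median of genes (Ern2, Creb3l1 in APT121, Creb3l4 on 7 of 8 wild type arrays and 1 of 4 APT121 arrays) were not shown to be above background.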
